A study of Mus musculus with 56 samples.

Results

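The 42 genes described here encode the cyclins, the cyclin-dependent kinases (CDKs) and the factors that act with them to drive a cell through its division cycle. They were taken as a fixed list of names, chosen with earlier results of these data known. For each gene the accessibility of its 10 kb locus was followed, defined as the sum of counts over every peak of open chromatin whose centre lies at most 10 kb from the transcription start site (TSS) in the mm10 mouse genome. All 42 genes had such a locus, out of 18691 protein-coding genes with a peak in this window, and together they held 321 of the 297361 peaks in the data set. The data were bulk ATAC-seq counts, an assay that tags open DNA by transposase insertion, from 56 libraries of 1000 cells each. The study asked whether single clones of myeloid progenitors differ in how they respond to loss of Tet2, an enzyme that oxidises methylated cytosine.

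All libraries came from clones of granulocyte-monocyte progenitors (GMP) derived from a Tet2 fl/fl mouse and immortalised by a retrovirus carrying Hoxb8 fused to an oestrogen receptor domain, grown in 0.5 µM beta-estradiol. The study also reports that its immortalised lines were derived from mice of both sexes. Each clone was divided into a knockout (KO) line, transduced with Cre from an integrase-defective lentivirus at a multiplicity of infection of 200, and a control line that received GFP from the same kind of vector. There were 28 clones. The SCF group holds 24 clones, numbered 1 to 5, 7 to 18 and 23 to 29, that grew in about 100 ng/ml stem cell factor (SCF), which the labels describe as giving neutrophil-biased cells. The GM-CSF group holds 4 clones, numbered 19 to 22, that grew in 10 ng/ml GM-CSF, described as giving macrophage progenitors. Each line is 1 clone, Hoxb8 held every line in division, and no clone was grown in both cytokines, so clone and cytokine cannot be told apart in the cytokine comparison. The share of counts on chromosome X also differed between groups. It was 0.714 to 0.840 times the median over libraries in GM-CSF clones and 0.961 to 1.09 times in SCF clones 1 to 18. In SCF clones 23 to 29 it was 0.739 to 0.915 times. The titles of clones 20 to 22 name SCF, while their treatment field names GM-CSF, and they were placed with GM-CSF.

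Progress through the cell cycle rests on kinases that are active only when bound to a cyclin. D-type cyclins with CDK4 and CDK6 respond to growth factors and phosphorylate the retinoblastoma protein, which releases E2F factors. E2F factors in turn open the way to cyclin E, cyclin A, the licensing of replication origins and DNA synthesis, while inhibitors of the Cdkn genes hold the kinases back and Wee1 and the Cdc25 phosphatases set the time of entry into mitosis.

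Total counts ran from 39379 to 1079233 per library (median 389432.5), and the GM-CSF clones were the shallowest, with 88234 to 766838 in control and 39379 to 468878 in KO lines. The Tet2 locus was at 30.9 ± 10.7 CPM (counts scaled to a library total of 1e6; SD, n = 24) in SCF control lines and 32.9 ± 9.81 CPM in SCF KO lines, a sum over the locus that does not show whether the floxed exon was lost and so does not check the deletion. Peaks were found at all 9 listed GMP and early neutrophil markers, and in SCF control lines all 9 lay above the median locus, among them Elane at 133 CPM and Prtn3 at 136 CPM. In GM-CSF control lines 7 of the 9 did, and the summed level of the list was 557 to 669 CPM against 692 to 862 CPM in SCF control lines, with 7 of the 9 lower and 2 higher. The widest gaps were at Cd34, at 14.6 against 63.9 CPM, and Kit, at 24.4 against 63.9 CPM, and the higher ones were Spi1, at 94.5 against 71.2 CPM, and Fcgr3, at 61.9 against 40.0 CPM. Mast cell and basophil markers summed to 12.8 to 36.4 CPM in GM-CSF and 27.9 to 95.7 CPM in SCF control lines, and Cpa3 was at 0 in all GM-CSF KO lines. Monocyte and macrophage markers summed to 72.7 to 166 CPM and 101 to 168 CPM in the same groups, lymphoid markers to 158 to 230 CPM and 130 to 290 CPM, and erythroid and megakaryocyte markers to 230 to 292 CPM and 205 to 372 CPM. In SCF control lines the lymphoid markers ran from 7.77 CPM at Cd3e to 117 CPM at Cd79a, and Klf1, of the erythroid list, was at 145 CPM. Control lines 19 and 20 differed by no more than sampling noise (chi-square test of 5865 loci, p = 0.211), as did KO lines 19 and 20 (p = 0.711) and SCF KO lines 13 and 16 (p = 0.513), so results are also given without clone 20 or without clone 13.

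The cell cycle loci were among the more open loci of these cells. Their mean level over all libraries had a median of 79.7 CPM, against 30.0 CPM over all loci with a peak, in a window of the same size for every gene. The most open was Cdkn2d, which encodes the CDK4 and CDK6 inhibitor p19, at 296 CPM, followed by Pcna, the sliding clamp of DNA polymerase, at 207 CPM and E2f3, an activating E2F factor, at 182 CPM. Peaks within 1 kb of the gene's own start held 54.7%, 45.0% and 69.7% of these counts, so the sums include peaks further off. The least open were Cdkn2a, which encodes p16 and p19Arf, at 20.4 CPM, Plk1, a mitotic kinase, at 22.1 CPM and Ccnb2, a mitotic cyclin, at 25.6 CPM. In SCF control lines the members formed a continuous series, in which Cdkn2d was the only one that stood more than 1 SD apart from the next.

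Within each role the range was wide. Among D cyclins and their kinases the levels ran from 48.9 CPM at Cdk6 to 155 CPM at Cdk4, and among cyclins E, A and B with CDK1 and CDK2 from 25.6 CPM at Ccnb2 to 155 CPM at Cdk2. At Cdk2 only 22.2% of the counts lay in peaks within 1 kb of its own start. Rb and E2F genes ran from 33.4 CPM at Rbl1, which encodes the Rb relative p107, to 182 CPM at E2f3. Licensing and replication genes lay between 59.6 CPM at Mcm3, a subunit of the replicative helicase, and Pcna, which was the highest of that role. The Cdc25 phosphatases and Wee1 ran from 58.1 CPM at Cdc25b to 152 CPM at Wee1, the kinase that holds CDK1 inactive. Mitotic genes and proliferation markers were the lowest role, with a median of 51.0 CPM and at most 100.0 CPM at Aurkb, a kinase of chromosome segregation.

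**Figure D1:**
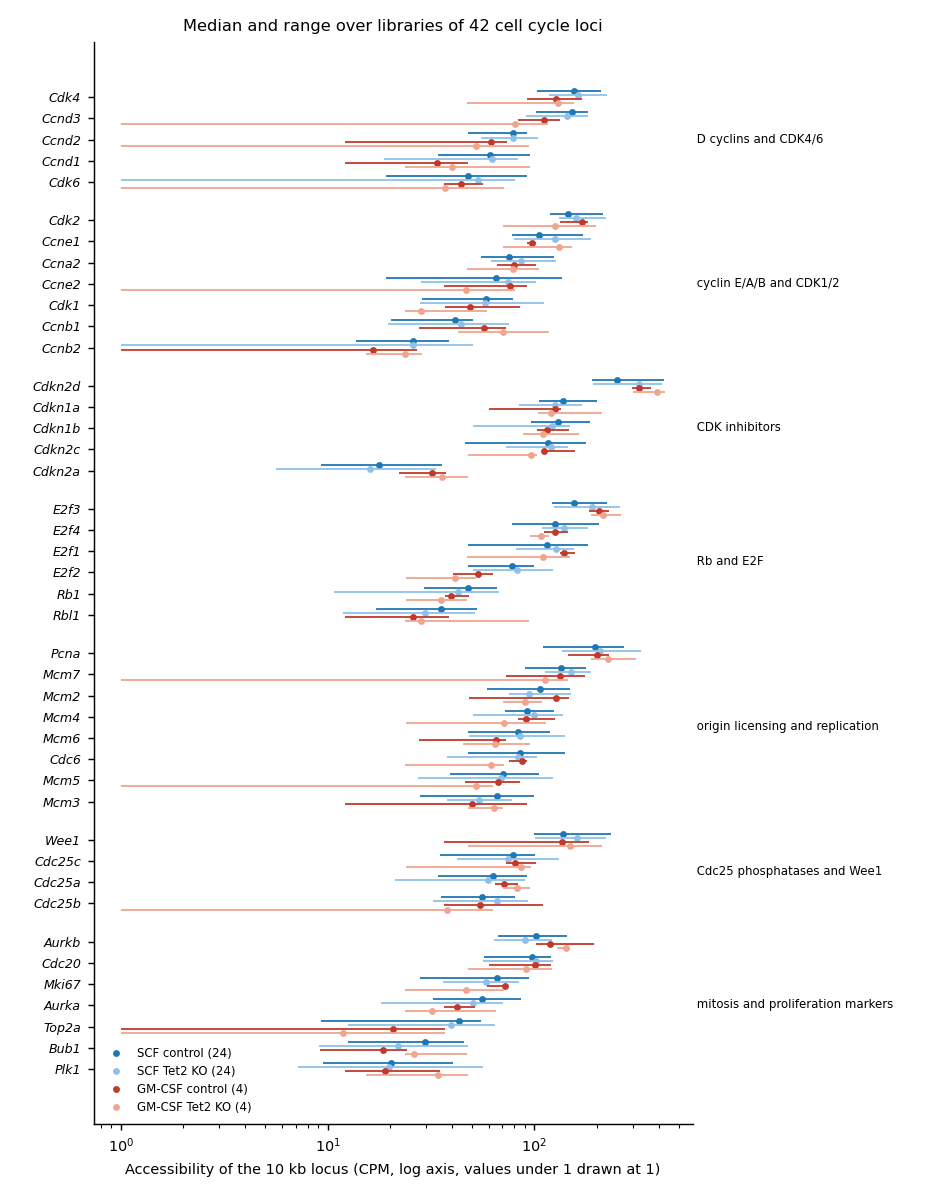
Median (point) and range (line) of the CPM of each of the 42 cell cycle loci over the libraries of the 4 groups, on a log axis with values under 1 drawn at 1 and genes grouped by role. Cdkn2d lies highest and Cdkn2a, Plk1 and Ccnb2 lowest, and lines that reach 1 mark members with at least 1 library under 1 CPM.

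The members held 1 to 14 peaks each (median 7.5) and differed in where their open chromatin lay. In 35 loci at least 70% of counts fell in promoter peaks, those within 1 kb of the start of a transcript of a protein-coding gene in the GENCODE basic set. In the other 7 less than 50% did, and these included all 3 D cyclins: Ccnd1 had 13.4%, Ccnd2 23.3% and Ccnd3 41.8% of its counts in promoters. The 2 inhibitors of the Cip/Kip family were also in this set, with 22.2% at Cdkn1a (p21) and 32.7% at Cdkn1b (p27), as were E2f2 with 18.5% and Aurkb with 23.5%. The gene starts of Ccnd2 and Cdk6 are not transcript starts in that set, so 1 peak of each within 1 kb of the gene start was not counted as a promoter. With it the share was 49.7% at Ccnd2 and 94.9% at Cdk6. Neighbouring genes shared a large part of some loci. In 15 members at least 50% of counts came from peaks that also counted for another gene, and in 11 members every peak did. Of these, 3 had exactly the set of peaks of a neighbour, which were Cdk2 with Pmel, Mcm4 with Prkdc and Cdc25b with Spef1. All counts of Cdkn2d were shared, and 98.3% of those of Ccnd3.

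Tet2 loss in SCF clones was compared within clones, each KO line against its control sister over 24 pairs. The loci of Cdkn2d, E2f3 and Ccne1 were more open in KO lines, by 1.19 to 1.20-fold, and no cell cycle locus was less open. These 3 were 7.5% of the 40 members tested, beside the 6.25% called among all 10408 loci tested (650 loci, of which 499 or 4.79% were more open and 151 or 1.45% less open). Cdkn2a and Plk1 fell below the filter on low counts and were not tested. The median log2 difference of the members was 0.00, against -0.01 over all loci, and 22 of 40 members were positive. An unadjusted p under 0.05 was reached by 12 members (30.0%), against 20% of all loci.

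Cdkn2d had 191 CPM in its lowest, 251 in its median and 422 in its highest SCF control line, and 192, 321 and 412 CPM in KO lines. The ranges overlapped almost fully, and 18 of 24 KO lines lay above their own sister. The log2 difference was 0.26 ± 0.05 (SE, adjusted p = 1.39e-04, edgeR). E2f3 had 122, 156 and 223 CPM (lowest, median, highest) in control and 124, 190 and 260 CPM in KO lines. Here 20 of 24 KO lines lay above their sister, with a log2 difference of 0.25 ± 0.06 (adjusted p = 0.0018). Ccne1 encodes cyclin E1, the partner of CDK2 at the start of S phase. Its locus had 78.1, 105 and 172 CPM in control and 79.5, 126 and 188 CPM in KO lines. It was also higher in 20 of 24 pairs, with a log2 difference of 0.25 ± 0.07 (adjusted p = 0.0091).

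**Figure D2:**
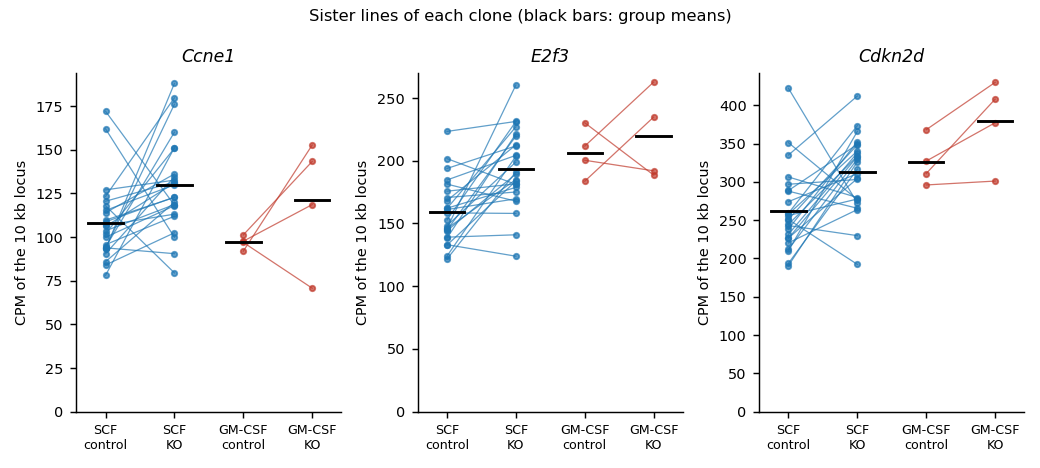
CPM of the Ccne1, E2f3 and Cdkn2d loci in the control and KO line of every clone, lines joining sisters, blue for SCF and red for GM-CSF, with black bars for group means. Most SCF pairs are higher on the KO side (20, 20 and 18 of 24 pairs) while the groups overlap.

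The promoters of these 3 genes are shown because their loci were called. Peaks within 1 kb of the gene's own start held 96.2% of the counts of the locus at Ccne1, 69.7% at E2f3 and 54.7% at Cdkn2d. Each is a window of 300 bases that spans the RefSeq gene start in GRCm38.p6, read 5′ to 3′ on the minus strand, on which all 3 genes lie. The RefSeq start lies 44 bp from the TSS used for the locus at Ccne1, 0 bp at E2f3 and 198 bp at Cdkn2d. Capitals mark matches, on either strand, to an E2F core (TTCCCGC or TTCGCGC or TTGCCGC or TTGGCGC), to the cell cycle homology region known as CHR (TTTGAA or TTCGAA), to CCAAT and to the GC box GGGCGG.
Ccne1, chr7:38107441-38107740: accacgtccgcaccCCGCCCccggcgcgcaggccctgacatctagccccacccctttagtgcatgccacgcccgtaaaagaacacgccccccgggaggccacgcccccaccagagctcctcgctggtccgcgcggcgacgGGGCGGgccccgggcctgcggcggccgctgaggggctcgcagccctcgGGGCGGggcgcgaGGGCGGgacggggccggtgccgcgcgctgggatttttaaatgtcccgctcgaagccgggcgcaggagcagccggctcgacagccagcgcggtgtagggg
E2f3, chr13:29986014-29986313: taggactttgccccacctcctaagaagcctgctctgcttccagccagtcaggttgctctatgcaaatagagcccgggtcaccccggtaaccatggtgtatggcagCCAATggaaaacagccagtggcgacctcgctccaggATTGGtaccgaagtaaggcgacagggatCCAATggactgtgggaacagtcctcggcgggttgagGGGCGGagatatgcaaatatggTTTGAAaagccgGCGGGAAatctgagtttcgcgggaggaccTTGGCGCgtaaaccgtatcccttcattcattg
Cdkn2d, chr9:21291160-21291459: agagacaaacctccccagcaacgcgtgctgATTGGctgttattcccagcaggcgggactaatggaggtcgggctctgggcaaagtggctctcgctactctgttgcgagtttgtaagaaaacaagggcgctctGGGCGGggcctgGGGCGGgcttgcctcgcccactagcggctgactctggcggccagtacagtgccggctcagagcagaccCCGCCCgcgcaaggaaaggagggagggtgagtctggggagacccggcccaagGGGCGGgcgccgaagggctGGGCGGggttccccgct
The E2f3 window held 2 E2F cores, 1 CHR element, 3 CCAAT boxes and 1 GC box. That of Ccne1 held 4 GC boxes and that of Cdkn2d 5 GC boxes and 1 CCAAT box, with no match to the other letters in these windows. A RefSeq promoter was matched for 32 of the 42 members. An E2F core was present in 46.9% of them and in 9.57% of all 32851 promoters of the same length. CHR letters were in 37.5% against 19.2%, CCAAT in 68.8% against 37.4% and the GC box in 81.3% against 35.7%. The elements were spread by role: CHR and CCAAT letters were each in 6 of 6 promoters of mitotic genes and proliferation markers, and the E2F core in 5 of 7 of licensing and replication genes and in 1 of 6 of the mitotic ones. The member promoters were also rich in CpG, with a median of 24 CpG dinucleotides against 7 in all promoters.

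At the level of single peaks, 47 of the 321 member peaks had enough counts for the same test, 40 in promoters and 7 outside, over 34 genes. Of these, 2 (both higher) were called at an adjusted p at or under 0.01, where 2.49% of all 7871 peaks tested were called and 2.21% were called higher. One was the E2f3 promoter peak centred 186 bp upstream of the TSS (chr13:29986099-29986399), which had 109 ± 25.4 CPM in control and 137 ± 25.2 CPM in KO lines (log2 difference 0.26 ± 0.07, adjusted p = 0.0099). The second E2f3 peak, in an intron 1651 bp downstream of the TSS and also counted as a promoter peak, had a difference of 0.03 ± 0.10. The other called peak, in the Cdkn2d locus, lies 3281 bp downstream of the Cdkn2d TSS, beyond the end of the gene and directly upstream of the start of its neighbour Kri1 (chr9:21287976-21288276). It had 101 ± 17.1 CPM in control and 125 ± 24.2 CPM in KO lines (0.26 ± 0.07, adjusted p = 0.0091). The promoter peak of Cdkn2d itself had a difference of 0.21 ± 0.07 and an adjusted p of 0.0261, and that of Ccne1 0.20 ± 0.07 and 0.0789, so neither passed. With DESeq2, and with edgeR without the clone as a block, 0 member peaks were called (127 and 58 peaks of all).

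No other member passed in this comparison. The nearest was Aurkb at -0.22 ± 0.07 (adjusted p = 0.0511), with 100.0 ± 18.3 CPM in control and 88.2 ± 16.8 CPM in KO lines and 8 of 24 KO lines above their sister. Under upper-quartile scaling, which gave 331 more open and 256 less open loci in all, Aurkb passed at -0.26 (adjusted p = 0.0171), and it also passed without clone 13. Wee1 was at 0.17 (adjusted p = 0.0696), Pcna at 0.16 (0.0864) and Mcm7, a helicase subunit, at 0.16 (0.112). By role, cyclins E, A and B with CDK1 and CDK2 were positive in 6 of 7 members with a median of 0.14. The mitotic genes and proliferation markers were positive in 0 of 6 with a median of -0.16, from -0.23 at Bub1 to -0.01 at Cdc20. Of all loci tested, 46.6% were positive. The medians of the other roles lay between -0.01 and 0.06, and D cyclins with CDK4 and CDK6 spanned -0.13 to 0.12. Of Cdk4, Cdk2, Mcm2, Mcm3 and Cdc25a, all with an unadjusted p under 0.05, none had an adjusted p under 0.165.

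**Figure D3:**
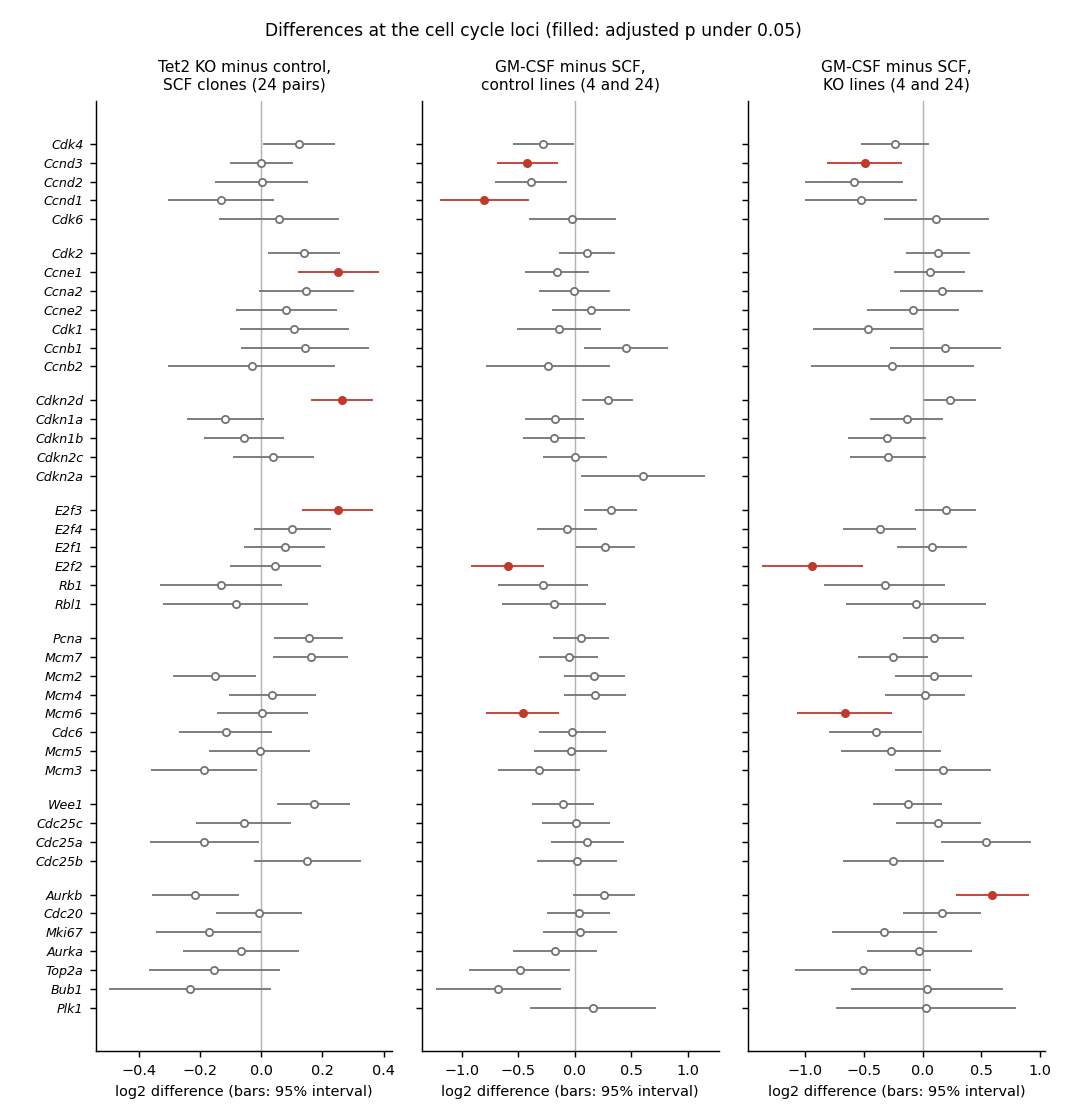
Log2 difference of every tested cell cycle locus (point, with 95% interval) for Tet2 KO minus control in SCF clones and for GM-CSF minus SCF in control and in KO lines, red and filled where the adjusted p was under 0.05. Cdkn2d, E2f3 and Ccne1 stand to the right in the first panel, and E2f2, Ccnd3 and Mcm6 to the left in both cytokine panels.

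The share of counts in promoters was 43.1 ± 4.11% in SCF control and 44.8 ± 5.26% in SCF KO lines, and the 3 called loci are among those with most of their counts in promoters. With that share as a covariate Cdkn2d kept its call (0.19, adjusted p = 0.0166), while E2f3 (0.19, 0.0509) and Ccne1 (0.20, 0.0967) did not pass. The SCF clones fall into a set numbered 1 to 18 and a set numbered 23 to 29, which were tested apart. The first set had 0.961 to 1.09 times the median share of counts on chromosome X, the second 0.739 to 0.915 times. All 3 called loci passed within clones 1 to 18. In clones 23 to 29 alone the differences were 0.35 ± 0.11 at Cdkn2d (adjusted p = 0.131), 0.30 ± 0.11 at E2f3 (0.322) and 0.21 ± 0.13 at Ccne1 (0.629), with 12 loci called in all.

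In GM-CSF clones Tet2 loss gave no called locus among the 42 members tested, as among all 13112 loci (0%). An unadjusted p under 0.05 was seen at 1 member and at 5.4% of all loci, and DESeq2 called 0 members. That member was Ccne1, which had 101, 96.9, 91.9 and 97.6 CPM in control lines 19 to 22 and 143, 70.7, 153 and 119 CPM in their KO sisters. It was thus higher in 3 of 4 pairs, with a log2 difference of 0.45 ± 0.20 (p = 0.0234, adjusted p = 0.867, edgeR). Cdkn2d had 368, 327, 296 and 311 CPM in control and 430, 377, 301 and 408 CPM in KO lines, higher in 4 of 4 pairs. Its log2 difference was 0.22 with a 95% interval from -0.07 to 0.50, which includes both 0 and the value seen in SCF clones. E2f3 was at 0.13 ± 0.16, higher in 2 of 4 pairs. The KO effect was not shown to differ between the cytokines at any member: 0 of 42 were called, as were 0% of all 13112 loci, and 0 members had an unadjusted p under 0.05, against 4.31% of all loci. The differences of the effect (GM-CSF minus SCF) were -0.06 ± 0.15 at Cdkn2d, -0.13 ± 0.17 at E2f3 and 0.19 ± 0.21 at Ccne1.

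The cytokines were compared in control lines, where Tet2 is intact, over 4 GM-CSF and 24 SCF clones. The loci of Ccnd1, Ccnd3, E2f2 and Mcm6 were less open in GM-CSF, at 0.574 to 0.746 times the SCF level, and no cell cycle locus was more open. These 4 were 9.52% of the 42 members tested, where 12.4% of all 12895 loci were called (743 or 5.76% more open and 855 or 6.63% less open). The median log2 difference of the members was -0.03, against -0.01 over all loci. The D cyclins with CDK4 and CDK6 had 0 of 5 positive members and a median of -0.39, where 49.3% of all loci were positive. An unadjusted p under 0.05 was reached by 13 members (31.0%), against 25.1% of all loci.

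Ccnd1 encodes cyclin D1, which carries growth factor signals to CDK4 and CDK6. Its locus had 34.4 CPM in the lowest, 61.0 in the median and 95.4 in the highest SCF control line. GM-CSF clones 19 to 22 had 36.8, 12.1, 47.8 and 30.8 CPM (4, 1, 26 and 24 counts). All 4 GM-CSF lines lay below the SCF median and 2 below the SCF range, with a log2 difference of -0.80 ± 0.20 (adjusted p = 0.0024, edgeR). Ccnd3 encodes cyclin D3, and had 102, 153 and 181 CPM (lowest, median, highest) in SCF control lines. GM-CSF control lines had 82.8, 133, 105 and 117 CPM (9, 11, 57 and 91 counts). Only clone 19 lay below the SCF range, and the difference was -0.42 ± 0.14 (adjusted p = 0.0271).

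E2f2, an activating E2F factor, had 47.7, 78.1 and 99.0 CPM in SCF control lines. GM-CSF control lines had 46.0, 60.6, 40.4 and 62.9 CPM (5, 5, 22 and 49 counts). Clones 19 and 21 lay just below the SCF range and all 4 below its median, with a difference of -0.59 ± 0.17 (adjusted p = 0.0069). Mcm6, a helicase subunit, had 47.7, 82.9 and 119 CPM in SCF control lines. GM-CSF control lines had 27.6, 72.7, 60.7 and 69.4 CPM (3, 6, 33 and 54 counts), so that 1 clone, on 3 counts, fell outside the SCF range. Its difference was -0.46 ± 0.17 (adjusted p = 0.0485), which lies next to the threshold and passed under only 2 of 15 alternative settings. Clones 5, 13 and 16 had 1.10 to 1.20 times the median share of counts on chromosome 1, which carries Mcm6, where the other SCF control lines had 0.960 to 1.02 times. Without them the adjusted p of Mcm6 was 0.0663.

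**Figure D4:**
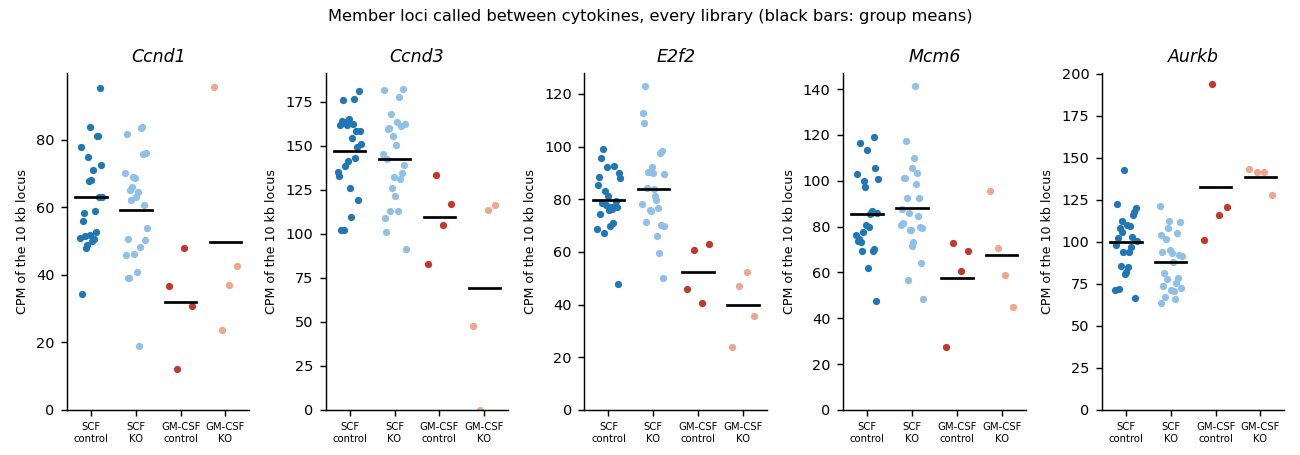
CPM of the 5 loci called between cytokines in every library of the 4 groups, with black bars for group means and each axis starting at 0. GM-CSF lines lie low at Ccnd1, Ccnd3, E2f2 and Mcm6 and high at Aurkb, where the 4 GM-CSF KO lines are at 128 to 143 CPM and the highest SCF KO line at 121 CPM. Of these KO lines, clones 19 and 20 had 6 counts each at Aurkb.

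The remaining members gave no call. E2f3 (0.32 ± 0.12, adjusted p = 0.0652) and Cdkn2d (0.29 ± 0.11, 0.0786) were positive, as was Ccnb1, a mitotic cyclin (0.45 ± 0.19, 0.103). Bub1, a checkpoint kinase of the spindle, was at -0.68 ± 0.28 (adjusted p = 0.105) and Ccnd2, the third D cyclin, at -0.39 ± 0.16 (0.106). Ccnd1 and E2f2 were each called in 13 of 14 alternative settings that could test them, since with a 1 kb window, the setting beyond these, both fell below the filter on low counts. The exceptions were the fit without clone 22 for Ccnd1 (-0.61, adjusted p = 0.194) and the fit without clone 21 for E2f2 (-0.42, 0.203). Ccnd3 was called in 7 of 15, and without clone 20 the calls were Ccnd1, Ccnd3 and E2f2. The summed GMP marker level was lower in the same 4 clones, with 7 of 9 markers lower and Spi1 and Fcgr3 higher, as given above, promoters took 40.0 ± 3.03% of their counts against 43.1%, and the part of either in these differences was not tested.

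In KO lines of the same clones, 4 of 41 members (9.76%) were called, where 9.84% of all 11694 loci were (507 or 4.34% more open, 644 or 5.51% less open). These are sister lines and no independent set of clones, and the values stand beside those of control lines for that reason. E2f2 was again less open, with 23.9, 47.1, 52.4 and 35.6 CPM (1, 2, 24 and 15 counts) in GM-CSF clones 19 to 22. SCF lines had 50.2, 82.7 and 123 CPM (lowest, median, highest), and the log2 difference was -0.94 ± 0.22 (adjusted p = 0.0012, edgeR). All but clone 21 lay below the SCF range, which at 1 and 2 counts says little for clones 19 and 20. Aurkb was more open, at 143, 141, 142 and 128 CPM (6, 6, 65 and 54 counts) against 63.6, 89.8 and 121 CPM. Here too clones 19 and 20 rest on few counts. All 4 GM-CSF lines lay above the SCF range, with a difference of 0.59 ± 0.16 (adjusted p = 0.0051), while in control lines the difference was 0.26 ± 0.14 (0.232) and was negative with a 1 kb window (-0.64, 0.184).

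Ccnd3 had 47.8, 0, 113 and 116 CPM in GM-CSF KO lines and 91.4, 144 and 182 CPM in SCF KO lines (-0.49 ± 0.16, adjusted p = 0.0344). The 0 of clone 20 comes from the shallowest library, in which the 3 counts that a count of 0 allows equal 70.7 CPM. Mcm6 had 95.5, 70.7, 58.9 and 45.1 CPM against 48.4, 85.3 and 141 CPM (-0.66 ± 0.21, adjusted p = 0.0219), and its groups overlapped in all but clone 22. Ccnd1 did not pass in KO lines, at 95.5, 23.6, 37.1 and 42.7 CPM against 18.8, 62.6 and 83.7 CPM (-0.53 ± 0.24, adjusted p = 0.169). Without clone 21 only E2f2 was called and without clone 22 only Aurkb, so the calls in KO lines depended on these clones. Without clone 20 the calls were Aurkb, Ccnd2, E2f2 and Mcm6. The D cyclins with CDK4 and CDK6 had 1 of 5 positive members in KO lines and a median of -0.49, where 48.2% of all loci were positive.

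The same comparison was made at single peaks. Of 321 member peaks 68 could be tested in control lines, 57 in promoters and 11 outside, over all 42 genes, and 6 were called, 3 higher and 3 lower in GM-CSF. Of the loci called in control lines, Ccnd1 and E2f2 held a called peak and Ccnd3 and Mcm6 did not, and the other 4 called peaks lay in loci that were not called there. Among all 13171 peaks tested 14.7% were called, 4.88% higher and 9.84% lower. The 3 lower ones all lay outside promoters. One was in an intron of E2f2, 5722 bp downstream of its TSS, with 30.3 ± 10.1 CPM in SCF and 18.4, 0, 3.68 and 8.99 CPM (2, 0, 2 and 7 counts) in GM-CSF clones 19 to 22. Its log2 difference was -1.95 ± 0.36, and it was called in each of 10 alternative settings.

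Cdkn1a had its lower peak in its last intron, 8293 bp from the TSS, at 27.0 ± 10.9 CPM in SCF and 27.6, 0, 1.84 and 5.14 CPM (3, 0, 1 and 4 counts) in GM-CSF control lines (-2.23 ± 0.43). In KO lines this peak had 0 counts in all 4 GM-CSF libraries, against 22.7 CPM in SCF. With a floor of 3 counts over the group, 3.11 CPM, it was at least 7.28-fold lower. The Cdkn1a locus as a whole had a difference of -0.18 in control lines and was not called. The lower peak of Ccnd1 was 1706 bp upstream of its TSS, with 16.8 ± 6.03 CPM in SCF and 0, 0, 1.84 and 7.71 CPM (0, 0, 1 and 6 counts) in GM-CSF control lines (-1.73 ± 0.49, adjusted p = 0.0045). It passed in 7 of 9 alternative settings, and not without clone 21 (adjusted p = 0.077) or with DESeq2 (0.0139).

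The peak higher in GM-CSF at Aurkb lies 3862 bp upstream of its TSS and had 24.0 ± 9.16 CPM in SCF and 27.6, 72.7, 40.4 and 47.5 CPM (3, 6, 22 and 37 counts) in GM-CSF control lines (1.00 ± 0.23, adjusted p = 3.06e-04). It did not pass without clone 22 (adjusted p = 0.047). The Aurkb promoter peak itself was at -0.48 ± 0.32 and did not pass. The other higher peaks were those already named at Cdkn2d, next to Kri1 (0.55 ± 0.15, adjusted p = 0.0022), and at the E2f3 promoter (0.49 ± 0.15, 0.0096). Of 10 alternative settings, the E2f3 peak passed only where the threshold was raised to 0.05, and the Cdkn2d peak passed in 5, with losses among them without clone 21 (adjusted p = 0.018) and without clone 22 (0.212). At the Cdkn2d peak, GM-CSF control lines had 92.0, 133, 131 and 152 CPM against 101 ± 17.1 in SCF, and the Cdkn2d promoter peak was at 0.17 ± 0.17. In KO lines the peaks of E2f2 (-2.08 ± 0.44), Cdkn1a and, 514 bp upstream of the TSS, Ccnd2 (-1.95 ± 0.54, adjusted p = 0.0046) were called, whereas those of Aurkb (1.03, 0.0113), Cdkn2d (0.29, 0.22) and E2f3 (0.31, 0.17) were not. The Ccnd1 peak fell below the filter there. The share of all peaks called in KO lines is not given here, so these calls have no background beside them.

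**Figure D5:**
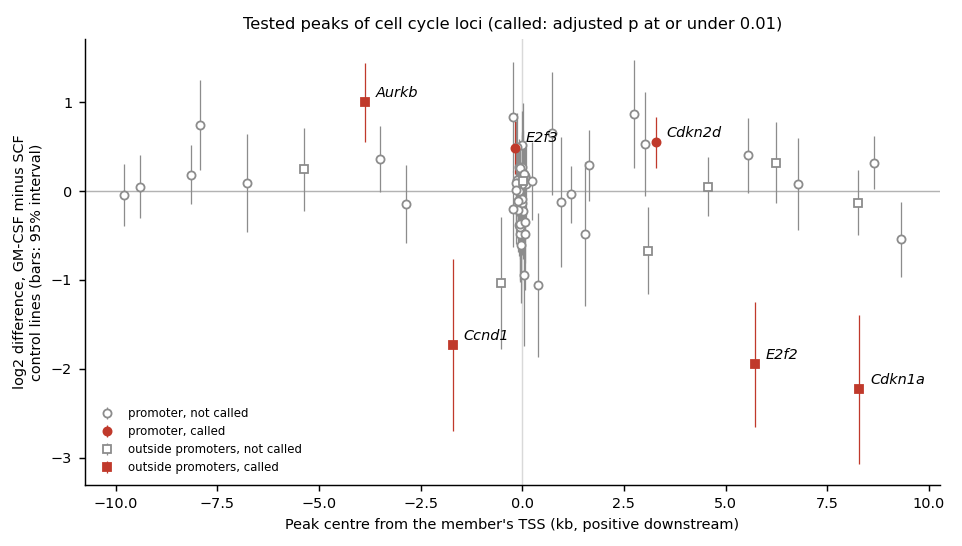
Log2 difference between GM-CSF and SCF control lines (with 95% interval) of the 68 tested member peaks, by distance of the peak centre from the member's TSS, circles for promoter peaks, squares for others and red for an adjusted p at or under 0.01. The 3 peaks called lower, at Ccnd1, E2f2 and Cdkn1a, lie outside promoters, and Aurkb is the called peak outside promoters on the positive side.

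The peaks outside promoters that were called are shown as the first 300 bases of each (GRCm38, plus strand, with the Cdkn1a peak ending where the last exon begins). Capitals mark matches on either strand to letters bound by myeloid factors, which were AGATAA for the GATA family, TGTGGT for the RUNX family, GGAAGT for the ETS family, TTGCNNCAA for the CEBP family, TGANTCA for the AP-1 family and TTCNNNGAA for the STAT family.
E2f2, chr4:136177966-136178265: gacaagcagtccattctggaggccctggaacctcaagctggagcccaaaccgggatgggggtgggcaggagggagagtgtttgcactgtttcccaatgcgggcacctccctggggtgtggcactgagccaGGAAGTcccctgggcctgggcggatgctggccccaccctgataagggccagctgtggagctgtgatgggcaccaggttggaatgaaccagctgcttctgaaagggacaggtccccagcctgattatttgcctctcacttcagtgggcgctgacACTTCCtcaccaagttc
Cdkn1a, chr17:29099119-29099343: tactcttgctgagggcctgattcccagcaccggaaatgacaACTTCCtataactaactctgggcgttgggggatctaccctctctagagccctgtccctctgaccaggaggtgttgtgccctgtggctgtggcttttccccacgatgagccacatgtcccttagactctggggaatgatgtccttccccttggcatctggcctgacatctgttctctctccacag
Ccnd1, chr7:144941481-144941780: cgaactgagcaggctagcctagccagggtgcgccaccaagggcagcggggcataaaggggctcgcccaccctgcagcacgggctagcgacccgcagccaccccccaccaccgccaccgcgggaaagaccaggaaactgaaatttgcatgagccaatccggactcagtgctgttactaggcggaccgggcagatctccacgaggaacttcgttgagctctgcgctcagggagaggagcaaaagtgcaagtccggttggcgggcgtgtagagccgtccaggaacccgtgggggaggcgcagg
Aurkb, chr11:69041635-69041934: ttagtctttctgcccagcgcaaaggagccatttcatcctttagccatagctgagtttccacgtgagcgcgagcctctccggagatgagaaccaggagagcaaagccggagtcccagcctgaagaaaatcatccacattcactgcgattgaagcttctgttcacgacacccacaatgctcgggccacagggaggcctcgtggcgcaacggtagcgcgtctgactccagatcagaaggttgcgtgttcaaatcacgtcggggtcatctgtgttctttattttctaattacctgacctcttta
The E2f2 peak held the ETS letters at 2 places and the Cdkn1a peak at 1, letters found in 31.0% of all peaks. None of the other letters was found in these windows. In all peaks RUNX letters were in 28.3%, GATA in 12.5%, AP-1 in 12.2%, STAT in 8.71% and CEBP in 2.46%. The Aurkb peak contains a tRNA gene in the RefSeq annotation (n-TWcca7, positions 69041826 to 69041897 on the plus strand), so its counts need not belong to Aurkb.

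Clones could also differ from each other whatever their genotype. Over the 24 SCF clones, with 2 lines each, 0 of 40 members tested differed between clones at an adjusted p under 0.05, where 1.7% of all 10408 loci did (177), and 4 members had an unadjusted p under 0.05, against 12.4% of all loci. The smallest adjusted p was 0.0995, at Wee1, followed by Mcm2 (0.219), Ccne2, the second cyclin E (0.343), and Cdk4 (0.358). DESeq2 also called 0 members.

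A further list of 73 genes that act in replication, the transcription of cell cycle genes, mitosis and checkpoints, of which 72 had a locus, was tested in the same fits. With Tet2 loss in SCF clones 3 of 64 tested (4.69%, against 6.25% of all loci) were more open, among them Fzr1, which switches on the anaphase-promoting complex (0.33 ± 0.05, higher in 23 of 24 pairs), and Gins2, a part of the replicative helicase (0.25 ± 0.06). In GM-CSF control lines 3 of 69 (4.35%, against 12.4%) were less open, which were Foxm1, a transcription factor of mitotic genes (-0.87 ± 0.20), Kif11, a spindle motor (-0.86 ± 0.20), and Cdc27, a subunit of the anaphase-promoting complex (-0.75 ± 0.18). In GM-CSF KO lines 4 of 69 (5.80%, against 9.84%) were less open, with Cdc27 (-0.81 ± 0.23) joined by Atr, a checkpoint kinase (-0.77 ± 0.27), Birc5, a part of the chromosomal passenger complex with Aurkb (-0.68 ± 0.21), and Fzr1 (-0.41 ± 0.13). In GM-CSF clones with Tet2 loss 0 of 69 were called. Between SCF clones Gins2 and Kif11 differed, 2 of 64 tested (3.13%, against 1.7%). The median of the list was 0.01 with Tet2 loss in SCF clones, and -0.07 and -0.09 between cytokines in control and KO lines.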

How the data were processed

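Bulk ATAC-seq libraries of the control and KO lines of 28 clones were used, 56 in all. The file deposited by the authors gives unnormalized counts for each library in each of 297361 peaks of 301 bp. The authors took these peaks from summits in their single-cell ATAC-seq data and from ImmGen. The labels name mm10, Bowtie2, SAMtools and Picard. Their versions, the counted unit (fragment or insertion) and the handling of duplicates were not given in the sources used here. Errors and limits cover counting as deposited.

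Genes came from the GENCODE vM21 basic annotation (GRCm38, which is mm10). Loci (10 kb from the TSS) and single peaks were tested by edgeR 4.0.16 quasi-likelihood in R 4.3.3, after TMM scaling and filterByExpr at a minimum count of 10. The scripts were tested on simulated data first. P-values were adjusted by Benjamini-Hochberg over every locus or peak tested, and calls needed an adjusted p under 0.05 at loci and at most 0.01 at peaks, as in the study. KO and control lines were compared with the clone as a block, and cytokines with no block. The 56 libraries were fitted together, blocked by clone, to test Tet2 loss in GM-CSF and whether its effect depended on cytokine. Levels are CPM of the library total scaled by TMM factors, as mean ± SD. Differences are log2 with SE. Clones are separate lines. In the cytokine tests p-values measure the spread between clones, and in the KO tests the spread of the differences between sisters. For GM-CSF clones that spread was shared with the SCF pairs. The test between SCF clones set their differences against the spread between sister lines.

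Sister lines were paired because the labels give them the same clone number. Over 13112 loci, deviations of sisters from their group means correlated at -0.04 to 0.26 in SCF clones (median 0.07) and at -0.01 to 0.08 in GM-CSF clones. The sister gave the highest correlation in only 8 of 24 SCF clones and in 3 of 4 GM-CSF clones. The members and gene lists were chosen with earlier results of these data known. Single values of some listed genes are not reported here. Members were named where called, where lowest or highest of their role, where close to a call, and for their called or promoter peaks. Alternatives (73 planned combinations of a comparison and a setting, 5 added after the data were seen) used DESeq2 1.42.0 or other scaling, windows and filters, or left out clones. Tables and figures were made with pandas 2.3.3, numpy 2.4.6, scipy 1.17.1 and matplotlib 3.10.9 in Python 3.11.15.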

Additional observations from a re-analysis of the deposited data

Results flagged for a closer look

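In 1 of 16 groups of 4 GM-CSF libraries examined, a single library was flagged as apart from the others. The Aurkb locus had 128 CPM in the GM-CSF KO line of clone 22, against 141 to 143 CPM in the other 3 KO lines, a gap that made up 0.878 of the range of the 4 libraries, above the 95% limit of Dixon's test. The values of clones 19 and 20 rest on 6 counts each. In these libraries 1 count equals 23.9 and 23.6 CPM, which is more than the gap. Clones 21 and 22 had 65 and 54 counts. The flag therefore cannot show that clone 22 differs. Chance alone flags about 1 in 20 such groups. The value of clone 22 still lay above every SCF KO line.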

How the results depend on the processing

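No called difference of a member changed direction under the 73 planned and 5 added alternatives, while that of Aurkb between cytokines in control lines, which was not called, went from 0.26 to -0.64 with a 1 kb window, and the cause of the shifts below was not tested. With Tet2 loss in SCF clones the 3 called members became 6 with a GC content offset beside the replicate block (765 loci more open and 78 less open), 0 in clones 23 to 29 alone, 1 with the promoter share as a covariate, and 5 without clone 13, without clones 3, 4, 13 and 27, or without clones 5, 13 and 16, where Pcna and Aurkb were added. Over all loci 650 calls became 419 with a 1 kb window, 350 with DESeq2, 260 in clones 1 to 18, 12 in clones 23 to 29 and 298 with the promoter share. Without the replicate block the same 3 members passed and 478 loci were called. Between cytokines in control lines the 4 called members became 2 with a 1 kb window (E2f3 higher, Ccnd2 lower), a GC content offset, clones 23 to 29 as the SCF group, or without clones 3, 4, 13, 27, 19 and 20, and 1 to 3 when 1 GM-CSF clone was left out. All 1598 loci became 860 with a 1 kb window, 2813 with 50 kb, and 632 to 1539 with 1 clone left out. In KO lines DESeq2 called 2 members and 641 of 1151 loci, and leaving out 1 clone gave 1 to 4 members and 385 to 1170 loci. For Tet2 loss in GM-CSF clones, the 8 libraries alone with the replicate block gave 3 loci and 0 members. Between SCF clones a 50 kb window called 1 member (Cdkn2a), and the 177 loci became 76 with 1 kb, 756 with 50 kb, 52 with DESeq2, 79 in clones 1 to 18, 41 in clones 23 to 29 and 309 with no filter. For peaks and Tet2 loss, DESeq2 gave 0 member peaks of 127 called, no replicate block 0 of 58, and an adjusted p under 0.05 gave 415 peaks. Apart from these, leaving out the replicate block changed no member's call. For peaks between cytokines, KO lines gave 3 member peaks of 987 called. An adjusted p under 0.05 gave 12 member peaks, a count with no background, since the share of all peaks at this limit is not given here. Clones 23 to 29 gave 1235 peaks, a minimum count of 5 gave 3679, and leaving out 1 clone gave 3 to 6 member peaks and 860 to 2080 peaks. The E2f3 peak was called in 1 of 10 of these settings and the Cdkn2d peak in 5 of 10. Depth limits the GM-CSF clones most, since clones 19 and 20 often held fewer than 10 counts at a member locus.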
